A study of Homo sapiens with 12 samples.

Results

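Cohesin is the ring-shaped protein complex that holds sister chromatids together and folds chromosomes into loops. The genes described here are 10 of the 57169 genes in the deposited count table, chosen by name. They are the ring subunits SMC1A, SMC3 and RAD21, the alternative HEAT repeat subunits STAG1 and STAG2, the loader NIPBL, the release factor WAPL with its partners PDS5A and PDS5B, and CTCF, the zinc finger protein that stops loop extrusion at its binding sites. All 10 were among the 16519 genes kept for testing. Levels came from bulk RNA sequencing of 12 xenograft tumours of SK-ES1, an established Ewing sarcoma line, of which 6 carried a knock-down of RING1B and 6 were controls that the labels call wild-type. The labels used here do not state the silencing construct, the time after injection, the host animal or the number of clones or animals, so p-values measure only the spread between these libraries.

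In the cohesin ring SMC1A and SMC3 form a hinged dimer that RAD21 closes, and STAG1 or STAG2 sits on RAD21. NIPBL loads the ring and drives extrusion, WAPL opens it, and CTCF bound to DNA holds it at loop anchors through contact with the STAG subunit. STAG2 is recurrently lost in Ewing sarcoma, where cells then depend on STAG1. RING1B, encoded by RNF2, is the catalytic ubiquitin ligase of Polycomb repressive complex 1. A gene count measures transcript amount and does not show whether a transcript still encodes a full protein.

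RNF2 was at 17.7 ± 4.56 CPM in knock-down and 47.6 ± 8.44 CPM in control (SD, n = 6 each), where CPM is the TMM-scaled count relative to library size. Its log2 fold change of −1.43 was called (edgeR adjusted p = 0.00347), a call being an adjusted p below 0.05 over all tested genes. Total counts lay between 23859184 and 26345508 in knock-down and between 24574794 and 26678325 in control libraries. Mitochondrial genes took 5.55% to 10.01% of the counts in knock-down, 4.65% to 7.08% in controls 1 to 5 and 14.4% in control 6. Control 6, knockdown 4 and knockdown 5 had the lowest median correlation with the other libraries (0.966, 0.955 and 0.967), and results are also given without them. Of 10 tumour markers 9 were tested and CD99 was listed at 0 in all libraries. The treatment of reads with several matches is not given, so this 0 need not mean that CD99 was absent. Summed tumour markers lay at 1967 to 2262 CPM in knock-down and 1860 to 2087 CPM in control. PECAM1, VWF and TEK of 8 endothelial markers reached at most 17, 25 and 22 counts in any library, and the summed endothelial markers lay at 18.5 to 28.5 CPM in knock-down and 17.9 to 29.4 CPM in control. Summed leukocyte markers lay at 465 to 830.1 CPM in knock-down and 462 to 797 CPM in control. Most of that sum was ITGB2, at means of 646 CPM in knock-down and 611 CPM in control, while CD68, CD14, ITGAM and TYROBP reached at most 5, 4, 15 and 27 counts in any library. PTPRC averaged 0.942 CPM in knock-down and 0.908 CPM in control. Summed fibroblast and pericyte markers lay at 242 to 1155 CPM in knock-down and 311 to 1145 CPM in control, and muscle markers at 8.42 to 26.8 CPM in knock-down and 13.6 to 39.5 CPM in control. The part of these cells in the results was not tested. Fewer cells of a type and less RNA per cell cannot be told apart in such bulk samples.

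The members with the lowest p were SMC1A and CTCF, and the upstream sequences of these and of SMC3, the partner of SMC1A, are shown for that reason. The sequences are the 250 bases before the RefSeq start site (GRCh38.p14), 5′ to 3′ on the strand of the gene, with capitals marking GGGCGG or its reverse complement, the GC box bound by Sp1 and KLF factors. SMC1A lies on the minus strand (window chrX:53422729-53422978), SMC3 on the plus strand (chr10:110567445-110567694) and CTCF on the plus strand (chr16:67562276-67562525).
SMC1A: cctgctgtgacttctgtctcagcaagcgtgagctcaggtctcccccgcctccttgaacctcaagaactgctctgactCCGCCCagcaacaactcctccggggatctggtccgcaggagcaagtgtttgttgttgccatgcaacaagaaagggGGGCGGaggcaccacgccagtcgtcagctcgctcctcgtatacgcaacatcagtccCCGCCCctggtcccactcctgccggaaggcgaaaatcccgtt
SMC3: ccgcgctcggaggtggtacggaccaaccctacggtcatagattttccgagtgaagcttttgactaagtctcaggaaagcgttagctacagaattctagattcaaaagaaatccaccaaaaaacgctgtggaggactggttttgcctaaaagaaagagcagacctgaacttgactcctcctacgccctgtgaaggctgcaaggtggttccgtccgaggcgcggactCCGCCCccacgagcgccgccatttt
CTCF: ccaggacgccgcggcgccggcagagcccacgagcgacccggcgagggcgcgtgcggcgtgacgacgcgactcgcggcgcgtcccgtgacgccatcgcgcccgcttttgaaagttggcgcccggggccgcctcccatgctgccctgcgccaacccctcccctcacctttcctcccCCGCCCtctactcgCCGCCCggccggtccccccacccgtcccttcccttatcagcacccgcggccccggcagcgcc

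A GC box was found on either strand in all 9 members with an entry in the RefSeq table, and in 42.6% of its 35116 windows of the same length. The NF-Y box CCAAT was in 5 of the 9 (STAG1, STAG2, WAPL, PDS5A and PDS5B) and in 32.0% of all windows. The ETS site CCGGAAGT, of the family to which FLI1 belongs, was in that of NIPBL alone among the 9 and in 3.42% of all windows. The E2F site TTTCCCGC, in STAG1 (where it overlaps a GC box), was in 1.39% of all windows. The YY1 site AAGATGGC was in none of the 9 and in 1.36% of all windows. A palindromic NRF1 site and a short GGAA repeat were also in none of the 9, and in 1.03% and 0.0712% of all windows. The window held 15 CpG in SMC1A, 17 in SMC3, 39 in CTCF and 28 to 41 in the others, against a median of 11 over all windows. Its GC content was 52.8% in SMC3, 60.4% in SMC1A and 70.0% to 78.0% in the others, against a median of 58.0%. The part of base composition in the motif counts was not tested.

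Per length, the ring subunits were the most abundant transcripts and the PDS5B, NIPBL and STAG1 transcripts the least. Levels that compare genes are in RPKM, the CPM divided by exon length in kilobases, as a mean over all 12 libraries. RAD21 (chromosome 8, 116845935 to 116874866, minus strand, hg38) had the highest level at 72.4 RPKM, above 96.7% of tested genes. SMC3 (chromosome 10, 110567691 to 110604636, plus strand) followed at 44.1 RPKM and SMC1A (chromosome X, 53374149 to 53422728, minus strand) at 29.4 RPKM. STAG2 (chromosome X, 123960212 to 124422664, plus strand) was at 24.8 RPKM and PDS5A (chromosome 4, 39822863 to 39977956, minus strand) at 15.8 RPKM. WAPL (chromosome 10, 86435256 to 86521815, minus strand) was at 10.8 RPKM, CTCF (chromosome 16, 67562407 to 67639185, plus strand) at 10.001 RPKM and STAG1 (chromosome 3, 136336233 to 136752403, minus strand) at 8.91 RPKM. NIPBL (chromosome 5, 36876759 to 37066413, plus strand) was at 7.33 RPKM and PDS5B (chromosome 13, 32586427 to 32778019, plus strand) at 7.08 RPKM. Even the lowest lay above 64.0% of tested genes.

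Some neighbours in this order were apart in every library and others were not. RAD21 did not overlap SMC3, STAG2 did not overlap PDS5A, and PDS5A did not overlap WAPL in any libraries. SMC3 exceeded SMC1A per length in 12 of 12 libraries although their ranges overlapped across libraries. That order rests on the exon lengths used, 10484 bases for SMC1A and 4275 for SMC3. In CPM the mean of SMC1A was the higher, at 266 against 186 in knock-down and 351 against 191 in control. Knockdown 5 alone went the other way, at 166 against 179 CPM. SMC1A exceeded STAG2 in 8 of 12 with overlapping ranges. WAPL exceeded CTCF in 10 of 12, CTCF exceeded STAG1 in 10 of 12, STAG1 exceeded NIPBL in 11 of 12 and NIPBL exceeded PDS5B in 8 of 12. Neighbours from WAPL through CTCF, STAG1 and NIPBL to PDS5B all had overlapping ranges.

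**Figure D1:**
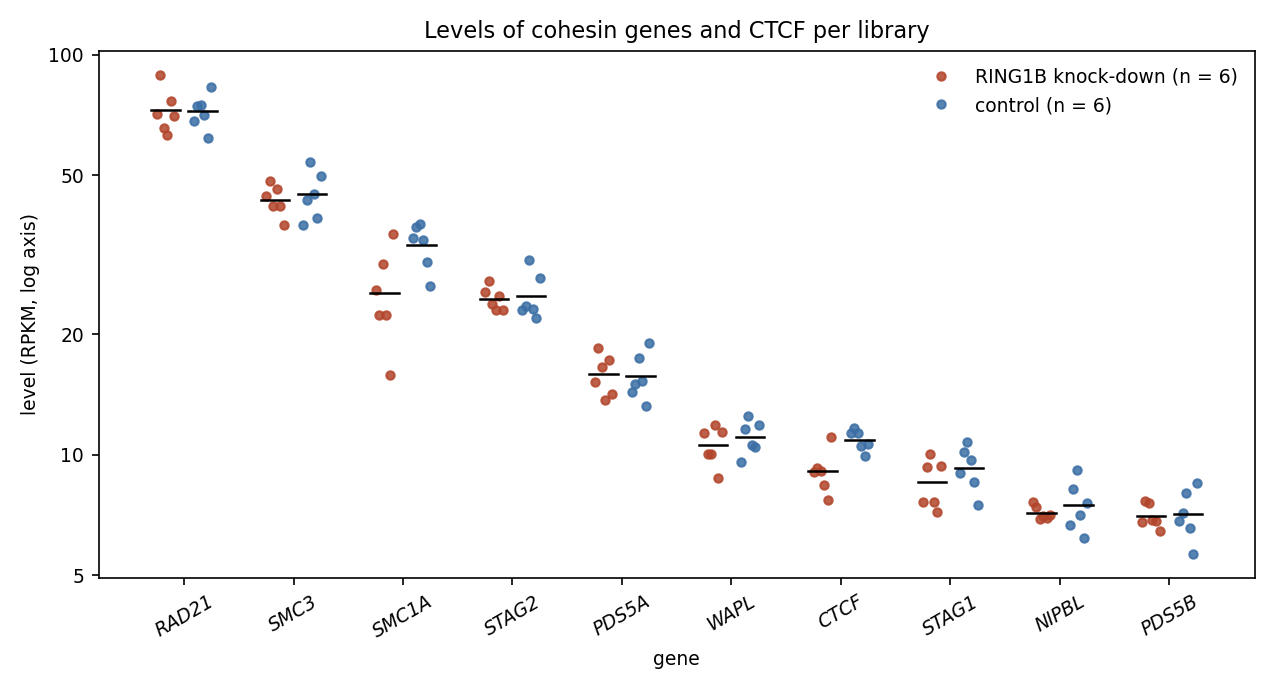
Level of each gene in RPKM (log axis) in the 6 RING1B knock-down libraries (left of each gene) and the 6 control libraries (right); points are libraries and lines are means. RAD21 is highest at a mean of 72.4 RPKM over 12 libraries and PDS5B lowest at 7.08 RPKM, and SMC1A has the widest spread.

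No cohesin gene was called between RING1B knock-down and control. Of 10 members 0 were called by edgeR, by DESeq2 or by limma-voom, where 0.297%, 1.75% and 0.339% of all tested genes were called. The knock-down and control libraries overlapped in all 10 members, while 1.22% of all genes had groups that did not overlap. At an unadjusted p below 0.05, 2 members had lower levels in knock-down and 0 higher, against 5.21% and 7.45% of all genes. The log2 fold changes ran from −0.40 to 0.02 with a median of −0.05, where that of all tested genes was 0.01, and 8 of 10 were negative against 47.6% of all genes. That count was 5 of 10 without control 3 and 10 of 10 without control 1, control 4, control 5, knockdown 2 or knockdown 5. The adjusted p values of the members lay between 0.279 and 0.986.

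**Figure D2:**
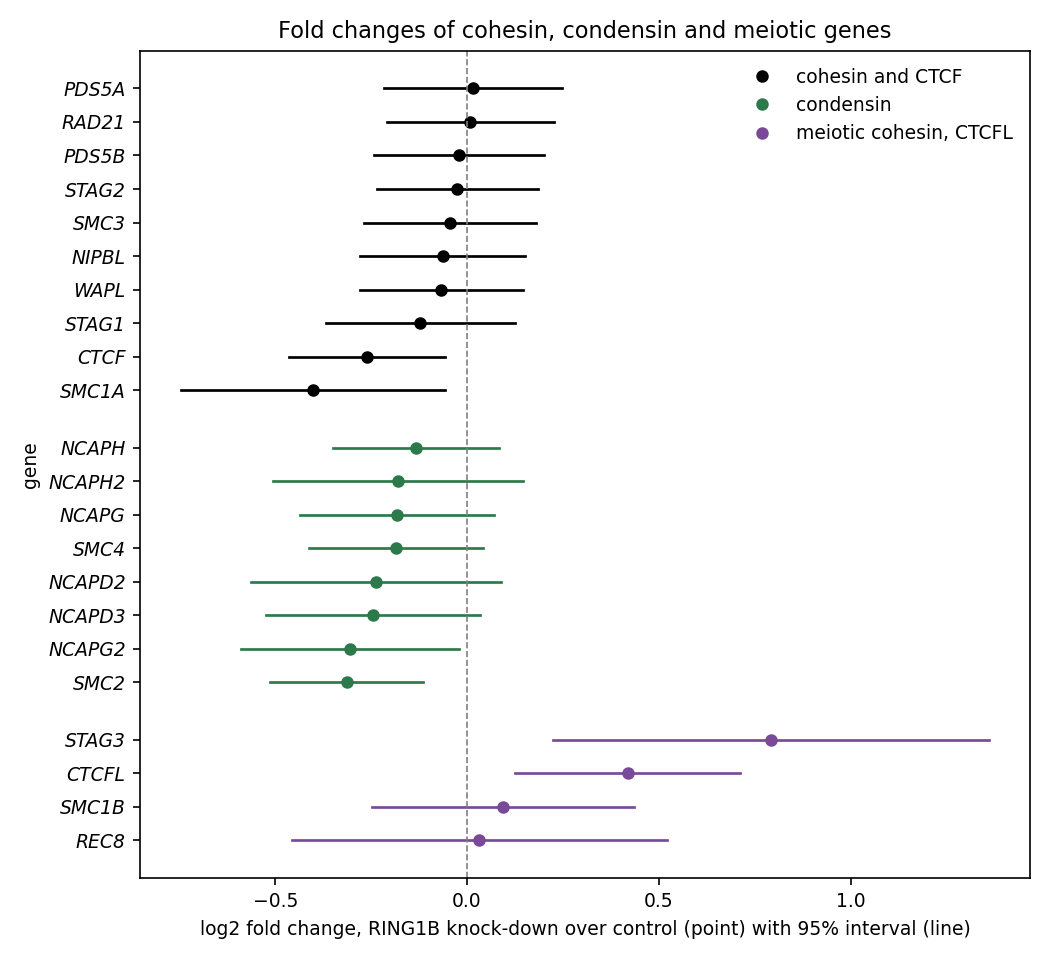
Log2 fold change of RING1B knock-down over control (point) and its 95% interval (line) for the 10 cohesin and CTCF genes, 8 condensin genes and 4 tested meiotic cohesin genes with CTCFL. The intervals of SMC1A and CTCF lie below 0 and those of the other 8 members include it, and no gene shown was called by edgeR over all genes.

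SMC1A, the X-linked partner of SMC3 in the SMC dimer, had a lowest, median and highest level of 166, 253 and 373 CPM in knock-down, against 277, 363 and 396 CPM in control. The groups overlapped, with 4 of 6 knock-down libraries below every control and knockdown 3 and knockdown 6 within the control range. The means were 266 ± 71.6 CPM in knock-down and 351 ± 45.1 CPM in control (SD, n = 6 each). The fold change was 0.757 with a 95% interval from 0.596 to 0.962 (log2 −0.40, SE 0.162, unadjusted p below 0.05, edgeR adjusted p = 0.322). Without control 6, knockdown 4 and knockdown 5 the log2 fold change was −0.30 (edgeR adjusted p = 0.342), and it was −0.30 without knockdown 5 alone and −0.53 without knockdown 6.

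CTCF had a lowest, median and highest level of 78.3, 92.2 and 112 CPM in knock-down, against 101, 112 and 119 CPM in control. In 5 of 6 knock-down libraries CTCF was below every control, and knockdown 6 lay among the controls. The means were 92.6 ± 11.4 CPM in knock-down and 111 ± 6.64 CPM in control (SD, n = 6 each). The fold change was 0.834 with a 95% interval from 0.725 to 0.961 (log2 −0.26, SE 0.0955, unadjusted p below 0.05, edgeR adjusted p = 0.279). Without control 6, knockdown 4 and knockdown 5 the CTCF log2 fold change was −0.19 (edgeR adjusted p = 0.428), and its edgeR adjusted p lay between 0.130 and 0.525 when each library was left out in turn. An antisense gene listed with no count in any library shares 13.03% of the exon bases of CTCF. The strand setting is not known, so the CTCF count is less certain over those bases.

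SMC1A was the most variable of the members. Its highest library exceeded its lowest 2.38-fold, against 1.39-fold to 1.52-fold for the other members. The biological coefficient of variation, the spread between libraries beyond counting, was 20.3% for SMC1A and 12.8% to 14.9% for the others, with a median of 21.9% over all tested genes. Knockdown 5 and knockdown 6, whose titles carry the same number, were the lowest and the highest knock-down libraries for SMC1A, at 166 and 373 CPM. They also held the lowest and highest CTCF, at 78.3 and 112 CPM. STAG2 differed 1.08-fold and RAD21 1.09-fold between the same 2 libraries.

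The longest annotated transcripts of SMC1A and CTCF had the highest GC contents of the members, at 47.2% and 45.8%, while those of the others lay between 36.5% and 41.3%. Libraries differed in how their levels moved with GC. The correlation over genes between a library's deviation from the mean and transcript GC was −0.51 in knockdown 5 and −0.43 in knockdown 2, and 0.47, 0.18, 0.21 and 0.46 in knockdown 1, 3, 4 and 6. In controls 1 to 6 it was 0.31, 0.11, −0.28, 0.13, 0.52 and −0.62. SMC1A lay below every control in knockdown 2 and knockdown 5, with negative values, at 235 and 166 CPM. It did so too in knockdown 1 and knockdown 4, with positive values, at 270.2 and 235 CPM. Control 6, with the most negative value, had the lowest SMC1A of the controls at 277 CPM. Control 3, also with a negative value, had the highest SMC1A. Knockdown 6, with a positive value, had the highest SMC1A of the knock-down libraries at 373 CPM. The part of GC in these levels was not tested. With each library corrected for GC, the log2 fold changes were −0.39 for SMC1A and −0.25 for CTCF, and their edgeR adjusted p values were 0.256 and 0.191.

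SMC3 did not share the pattern of SMC1A. Its lowest, median and highest levels were 161, 185 and 206 CPM in knock-down, against 161, 189 and 231 CPM in control. The SMC3 groups overlapped almost fully, with means of 186 ± 16.1 CPM in knock-down and 191 ± 27.02 CPM in control (SD, n = 6 each, edgeR adjusted p = 0.896). The ratio of SMC1A to SMC3 per length, looked at after the values were seen and not tested, was 0.595 ± 0.207 in knock-down and 0.759 ± 0.137 in control (SD, n = 6 each). It ran from 0.378 in knockdown 5 to 0.947 in knockdown 6, and from 0.531 to 0.928 among controls.

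**Figure D3:**
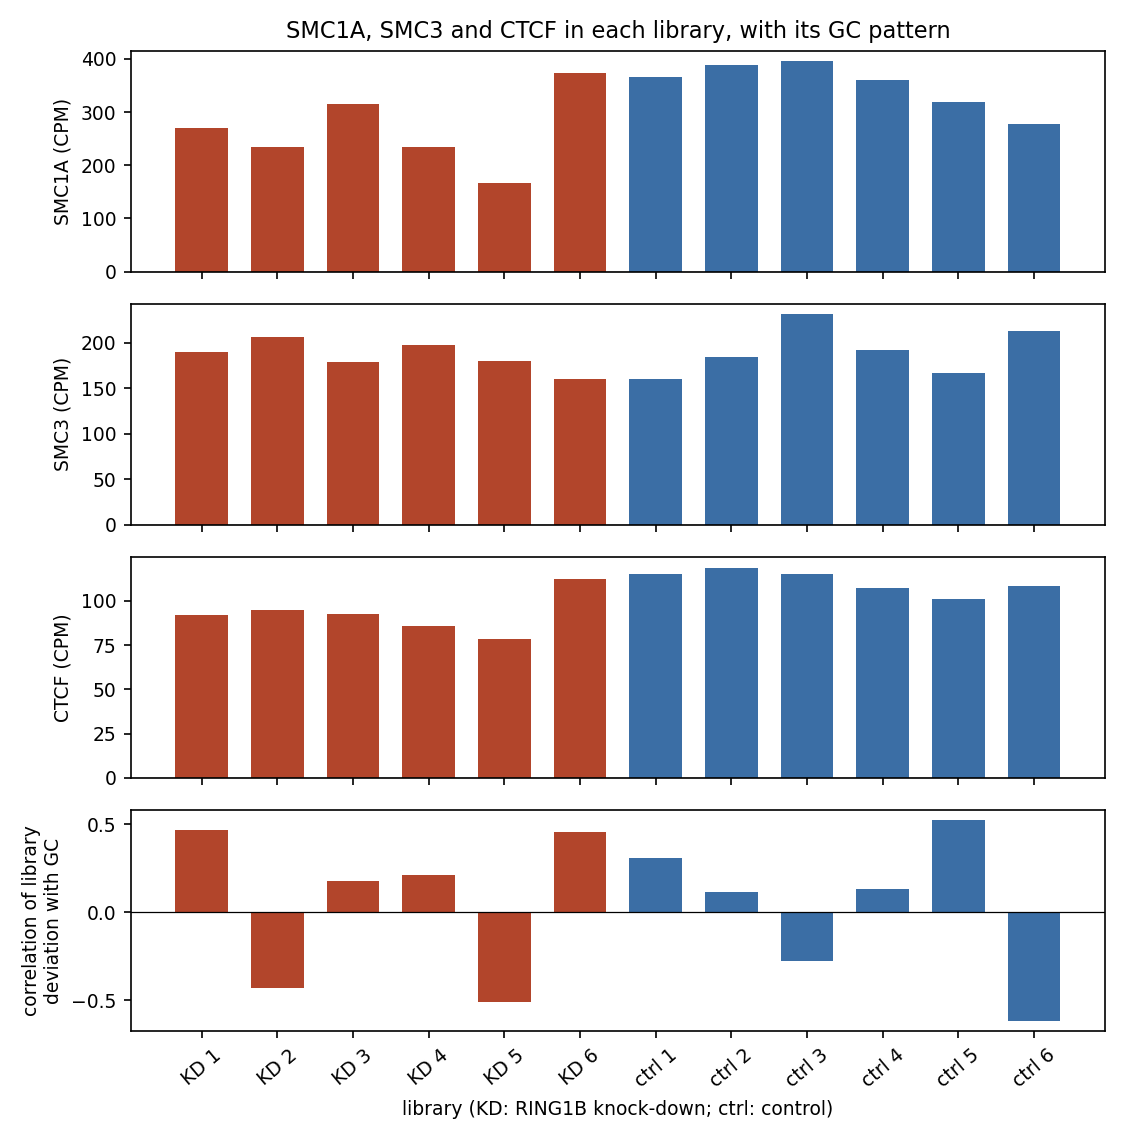
Bars give SMC1A, SMC3 and CTCF in CPM for each of the 6 RING1B knock-down (KD) and 6 control (ctrl) libraries, and the correlation over genes between the library's deviation from the mean and transcript GC. SMC1A and CTCF are lowest in KD 5, at 166 and 78.3 CPM, where SMC3 is at 179 CPM.

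RAD21, the kleisin that closes the ring, was at 390 to 552 CPM in knock-down (median 438) and 382 to 513 CPM in control (median 450). Its groups overlapped, knockdown 2 alone standing above every control, and the fold change was 1.01 with a 95% interval from 0.865 to 1.17 (edgeR adjusted p = 0.986). The sign of this value changed with the scaling (log2 −0.0020 with RLE factors and −0.0050 with library size alone). Of its exon bases 14.2% overlap other genes, chiefly UTP23 on the opposite strand, so part of its count may be shared where strand was not used.

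STAG2 had a lowest, median and highest level of 188, 199 and 222 CPM in knock-down, against 180, 191 and 251 CPM in control. All 6 knock-down libraries lay within the control range. The fold change was 0.983 with a 95% interval from 0.850 to 1.14 (log2 −0.03, SE 0.0984, edgeR adjusted p = 0.945). STAG2 transcript was thus abundant in both groups, at 24.6 and 25.001 RPKM as means of knock-down and control. These counts do not show whether it encodes a full STAG2 protein in this line.

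STAG1, its paralogue, had a lowest, median and highest level of 56.4, 66.5 and 78.9 CPM in knock-down, against 58.8, 73.5 and 84.5 CPM in control. Knockdown 5 alone lay below every control, and the fold change was 0.919 with a 95% interval from 0.775 to 1.09 (log2 −0.12, edgeR adjusted p = 0.695). PCCB, on the opposite strand, overlaps 21.2% of the exon bases of STAG1 and reached 4074 counts, so the STAG1 level is less certain than that of STAG2. No stretch of 50 bases was common to the transcripts of any 2 members.

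The balance of the paralogue transcripts, not of their proteins, was compared within each library, which removes library scaling. STAG1 made up 25.8% ± 3.02 of STAG1 plus STAG2 per length in knock-down and 27.2% ± 3.22 in control (SD, n = 6 each), a difference of −1.44 percentage points (two-sided exact permutation p = 0.442, adjusted over the 2 shares 0.636). It was −2.62 points without control 6, −2.23 without knockdown 3, −0.846 without control 2 and −0.769 without knockdown 5. The share was lowest in control 6, at 21.3%, and highest in control 2, at 30.2%. PDS5B made up 30.8% ± 1.75 of PDS5A plus PDS5B in knock-down and 31.2% ± 1.02 in control (SD, n = 6 each), a difference of −0.409 points (two-sided exact permutation p = 0.636, adjusted 0.636). The smallest p that 6 against 6 libraries allow is 0.00216. The 12 libraries carry 8 title numbers, of which 4 occur on 2 libraries each. The permutation took every library as separate, and what a shared number marks is not stated.

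NIPBL, the loader, was at 86.4 to 95.6 CPM in knock-down (median 88.2) and 77.5 to 115 CPM in control (median 91.8). All knock-down libraries lay within the control range, with a coefficient of variation of 4.13% in knock-down and 14.6% in control. Its fold change was 0.957 with a 95% interval from 0.825 to 1.11 (edgeR adjusted p = 0.835). MAU2, the partner of NIPBL in the loader, was at 63.8 ± 13.4 CPM in knock-down and 65.1 ± 12.2 CPM in control (SD, n = 6 each, edgeR adjusted p = 0.959).

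WAPL, which releases cohesin from DNA, was at 63.4 to 85.8 CPM in knock-down (median 77.4) and 69.2 to 90.2 CPM in control (median 80.1). The groups overlapped with knockdown 5 alone below the controls, and the fold change was 0.954 with a 95% interval from 0.823 to 1.11 (edgeR adjusted p = 0.820). PDS5A, a HEAT repeat protein that binds WAPL and RAD21, was at 167 to 225 CPM in knock-down (median 194) and 161 to 232 CPM in control (median 185). Its fold change was 1.01 with a 95% interval from 0.860 to 1.19 (edgeR adjusted p = 0.971). PDS5B, its paralogue, was at 85.1 to 101 CPM in knock-down (median 90.7) and 74.9 to 112 CPM in control (median 92.5), and its fold change was 0.986 with a 95% interval from 0.846 to 1.15 (edgeR adjusted p = 0.958). For the 8 members other than SMC1A and CTCF these intervals lay between 0.775-fold and 1.19-fold.

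Some members varied together between libraries of a group. Correlations of log2 CPM were taken after each group mean was removed, over 12 libraries whose independence is not known, for all 45 pairs of members. Permutation within groups and adjustment over the 45 pairs called 8 pairs, all positive, and 7 of them also by rank. STAG2 was in 4 of these pairs, with SMC3, RAD21, PDS5A and PDS5B, and SMC1A in 2, with CTCF and STAG1. SMC1A and CTCF had a Pearson r of 0.85 (permutation p = 0.00575, adjusted 0.0431) and a Spearman rho of 0.73 (permutation p = 0.0112, adjusted 0.063). That r was 0.53 without the 2 libraries farthest from the median of SMC1A. Leaving out the extremes narrows the range of SMC1A, which by itself tends to lower r. The r of SMC1A with CTCF was 0.75 without knockdown 5 alone and 0.77 without knockdown 6 alone (permutation adjusted p = 0.083 and 0.0656). STAG2 and SMC3 had an r of 0.84 (permutation p = 0.0025, adjusted 0.0319) and a rho of 0.79 (permutation p = 0.00768, adjusted 0.0494), with an r of 0.69 without the 2 libraries farthest from the median of STAG2. Of all other tested genes 3.05% had as high an r with SMC1A as CTCF had, and 0.206% as high an r with STAG2 as SMC3 had. For the other called pairs this share was 2.07% for STAG1 with SMC1A, 2.49% for STAG2 with RAD21, 0.394% for STAG2 with PDS5A, 0.599% for STAG2 with PDS5B, 0.593% for RAD21 with PDS5A and 1.52% for PDS5A with PDS5B. The share of called pairs among all pairs of tested genes was not computed, so nothing is read from the count of 8. SMC1A and SMC3 had an r of −0.24 (permutation adjusted p = 0.623).

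These correlations depended on the libraries and on transcript GC. Without control 5, knockdown 2 or knockdown 6, and without control 6, knockdown 4 and knockdown 5 together, 0 of 45 pairs were called. After the GC correction 20 pairs were called, all positive, and 4 pairs were called with and without it: STAG1 with SMC1A, SMC1A with CTCF, and STAG2 with SMC3 and with PDS5B. The r of SMC1A with CTCF was 0.91 after it (permutation adjusted p = 0.01), and that of PDS5A with PDS5B was 0.26 after and 0.84 before it (permutation adjusted p = 0.623 and 0.0297). RAD21 and PDS5A were in none of the 20 pairs.

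**Figure D4:**
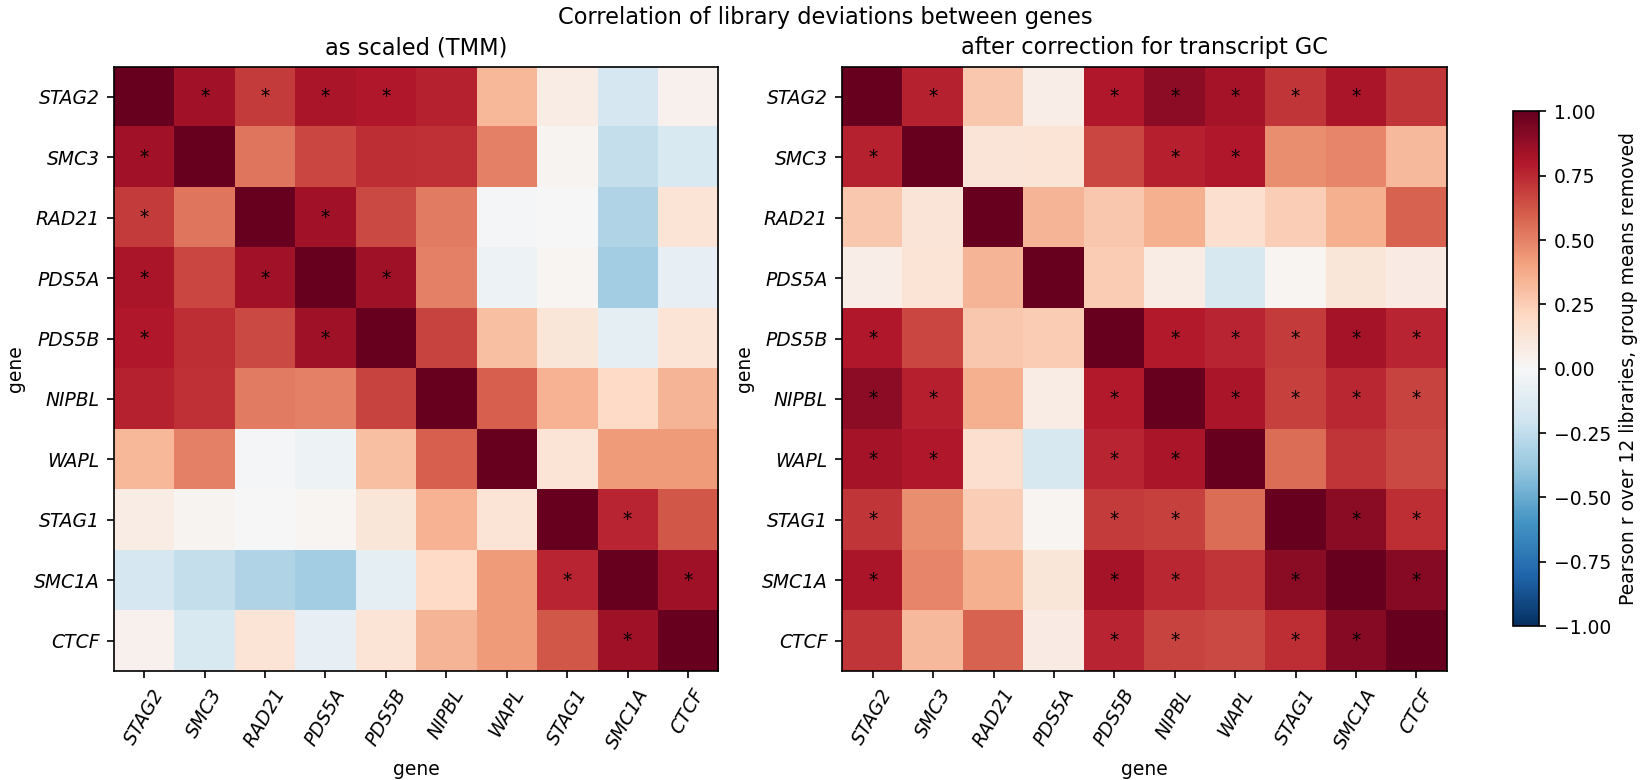
Pearson r between pairs of genes over 12 libraries after removal of group means, as scaled by TMM (left) and after correction of each library for transcript GC (right); stars mark pairs with a permutation p adjusted over 45 pairs below 0.05. The left panel has 8 such pairs and the right 20, of which 4 are shared.

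The tested genes most like STAG2 over the 12 libraries, by Pearson r after removal of group means, were GPBP1L1 (0.93), WDR26 (0.92) and USP47 (0.92), with Spearman rho of 0.79, 0.88 and 0.92. Those most like CTCF were MYPN (0.95), the pseudogene TOB2P1 (0.93) and NXPH2 (0.92), at mean levels of 9.78, 1.36 and 17.5 CPM. These are the highest values over all tested genes and are given as a description.

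Genes that act on cohesin had mostly lower fitted values in knock-down and 0 calls. Of 14 tested genes of the cohesin cycle 12 had a negative log2 fold change, with a median of −0.22. Of all tested genes 47.6% were negative and 0.297% were called. Of the 14, 3 were lower at an unadjusted p below 0.05, against 5.21% of all genes. CDCA5 (sororin), which protects cohesin from WAPL after replication, was at 83.2 ± 16.5 CPM in knock-down and 105 ± 11.1 CPM in control (SD, n = 6 each, log2 −0.34, edgeR adjusted p = 0.302). DDX11, a helicase needed for cohesion, was at 47.9 ± 10.3 CPM in knock-down and 59.9 ± 7.72 CPM in control (SD, n = 6 each, log2 −0.32, edgeR adjusted p = 0.362), and 17.7% of its 50-base stretches occur in other genes. With control 6, knockdown 4 and knockdown 5 left out, 10 of 14 were negative and the median was −0.14. Whether the levels of these 14 genes vary independently of each other between libraries was not tested.

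Condensin, the related SMC complex that compacts mitotic chromosomes, had 8 of 8 tested subunits with a negative log2 fold change. Their median was −0.21 and 0 were called, against 47.6% of all genes negative and 0.297% called. The 8 were measured in the same libraries, and whether their levels vary independently of each other was not tested. Of the 8, 2 were lower at an unadjusted p below 0.05, against 5.21% of all genes. SMC2, its core ATPase, was at 87.5 to 110 CPM in knock-down (median 97.1) and 109 to 141 CPM in control (median 123). In 5 of 6 knock-down libraries SMC2 was below every control (log2 −0.31, SE 0.0937, edgeR adjusted p = 0.193). NCAPG2 was at 199 ± 38.4 CPM in knock-down and 246 ± 31.6 CPM in control (SD, n = 6 each, log2 −0.31, edgeR adjusted p = 0.357), and at log2 −0.20 without control 6, knockdown 4 and knockdown 5. All 8 were also negative by DESeq2, by limma-voom and after the GC correction, and without control 6, knockdown 4 and knockdown 5, where the median was −0.17.

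The SMC5/6 complex, which acts in DNA repair, had 3 of 6 tested members negative, a median of 0.02 and 0 calls. Of all tested genes 47.6% were negative and 0.297% were called. SMC5 had a log2 fold change of −0.22 and NSMCE1 of 0.22 (edgeR adjusted p = 0.395 and 0.461), and NSMCE1 was at 0.11 without control 6, knockdown 4 and knockdown 5. Among 9 other factors of boundaries and loops, such as YY1, ZNF143 and MAZ, 6 were negative with a median of −0.04. This list had 0 calls, against the same shares of all genes. BHLHE40 had the smallest p of that list, at a log2 fold change of −0.38 (edgeR adjusted p = 0.524). Without control 1, its highest library, the BHLHE40 value was −0.20 (edgeR adjusted p = 0.809). AFF4 followed at −0.21 (edgeR adjusted p = 0.595), and at −0.089 without control 3 (edgeR adjusted p = 0.876).

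CTCFL, also called BORIS, is a germline paralogue of CTCF that most somatic tissues keep silent. It was abundant here, at 27.1 RPKM over 12 libraries against 10.001 RPKM for CTCF, and above 89.2% of tested genes. Its lowest, median and highest levels were 231, 277 and 358 CPM in knock-down, against 174, 193 and 277 CPM in control. Every knock-down library lay above every control other than control 6, and the fold change was 1.34 with a 95% interval from 1.09 to 1.64 (log2 0.42, SE 0.138, unadjusted p below 0.05, edgeR adjusted p = 0.226). Leaving out 1 library at a time, the CTCFL value ran from 0.32 without knockdown 1 to 0.52 without control 6 (edgeR adjusted p = 0.406 and 0.0756), and the highest edgeR adjusted p was 0.502, without control 2. With counts summed by title number it was 0.39 (edgeR adjusted p = 0.488). The ratio of CTCFL to CTCF per length, looked at after the values were seen and not tested, was 3.47 ± 0.776 in knock-down and 2.15 ± 0.493 in control (SD, n = 6 each).

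The other meiotic genes were lower per length. SMC1B, the germline counterpart of SMC1A, was at 7.47 RPKM over all libraries, with 32.8 ± 8.21 CPM in knock-down and 30.7 ± 4.89 CPM in control (SD, n = 6 each, edgeR adjusted p = 0.853). STAG3, the germline STAG protein, was at 3.16 ± 1.14 CPM in knock-down and 1.82 ± 0.430 CPM in control (SD, n = 6 each, log2 0.79, edgeR adjusted p = 0.236), and 32.3% of its exon bases overlap other genes. REC8, the meiotic kleisin, was at 2.63 ± 0.751 CPM in knock-down and 2.57 ± 0.437 CPM in control (SD, n = 6 each, edgeR adjusted p = 0.974). RAD21L1, its testis relative, had at most 4 counts in a library and was not tested.

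**Figure D5:**
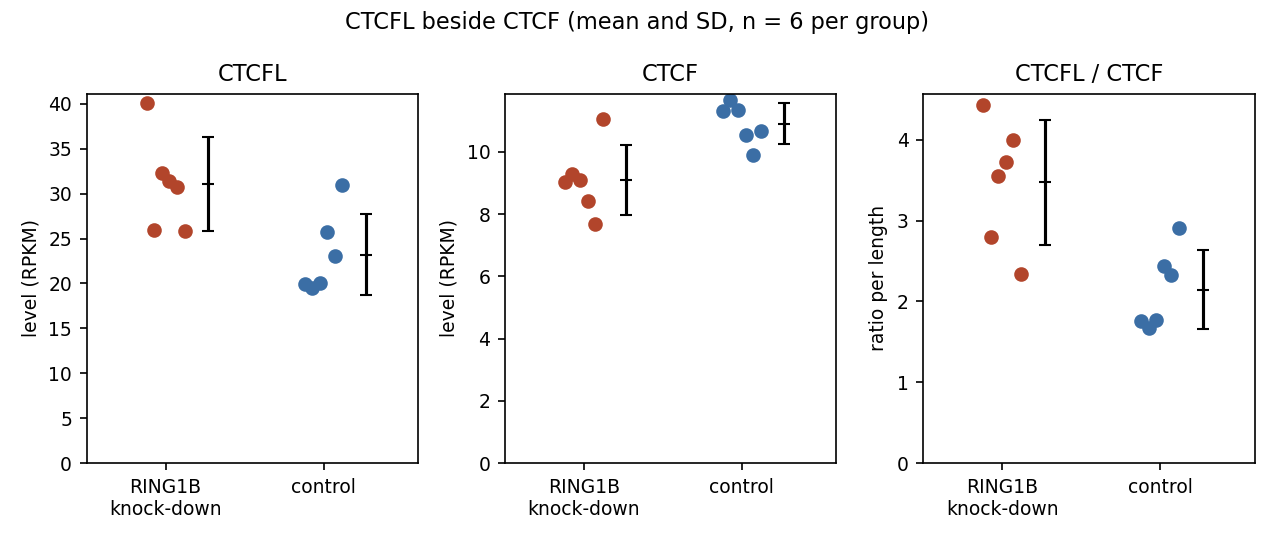
CTCFL and CTCF in RPKM and their ratio per length in 6 RING1B knock-down and 6 control libraries; points are libraries and the bar beside them is the mean with its SD. CTCFL exceeds CTCF in every library, and the ratio averages 3.47 in knock-down and 2.15 in control.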

How the data were processed

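Polyadenylated RNA of 12 xenograft tumours was sequenced. The hg38 build and FastQC, STAR 2.6.0a, featureCounts, limma 3.40.2 and R 3.6.0 are named, with no role or order, per the submitters' processing notes. The deposited table holds raw counts per gene made by the authors, with exon lengths, for 57169 genes. No source used here gives the strand setting, the treatment of reads with several matches or any removal of host reads.

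Genes with low counts were removed with filterByExpr, which left 16519 with at least 99.7% of the counts in every library. Counts were scaled by TMM factors and tested with the robust quasi-likelihood F test of edgeR 4.0.16 (limma 3.58.1, R 4.3.3), with Benjamini-Hochberg adjustment over all tested genes and calls below 0.05. Intervals are at 95%, and 3 counts correspond to 0.112 to 0.126 CPM. Groups came from the genotype label, and replicate numbers only name libraries. Correlations used log2 CPM with a prior count of 2 and 100000 permutations within groups, and shares all 924 divisions of the libraries. Coordinates and overlaps came from GENCODE 29, whose exons equal those of the table for all members. The alternatives were other scalings and filters, DESeq2 1.42.0, limma-voom, the title numbers as a random effect or summed, the title letter, leaving out libraries, and a GC correction added after seeing the data. The fits were tested on simulated data.

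The members and gene lists were chosen with earlier results of these data known. Named were all members, RNF2, the 2 genes of smallest p in each related list and the 3 genes most correlated with STAG2 and with CTCF. MAU2, SMC1B, REC8 and RAD21L1 were named for their role after their values were seen.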

Additional observations from a re-analysis of the deposited data

Results flagged for a closer look

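Among 52 groups of 6 libraries examined for a sample far from the others, 2 stood out, where chance flags about 1 in 20. DDX11 was at 44.3 CPM in control 6, below the 61.2 to 64.3 CPM of the other controls. AFF4 was at 129.5 CPM in control 3, above the 72.1 to 93.4 CPM of the other controls.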

How the results depend on the processing

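No member was called under any alternative run. SMC1A and CTCF kept a negative sign in all of them, at −0.53 to −0.30 and −0.34 to −0.22 when each library was left out in turn. The number of genes called over the whole table was 49, and it was 343 with DESeq2, 500 with limma-voom and quality weights, 91 with the title number as a random effect, 7 with counts summed by title number, 108 without control 6, knockdown 4 and knockdown 5, 114 with the GC correction, and 16 (without control 3) to 79 (without knockdown 4) when each library was left out. The 500 genes called with quality weights, of 16519 tested, included 2 genes of the related lists. These were CTCFL (log2 0.58) and STAG3 (0.97), with limma adjusted p of 0.0226 and 0.0243, and nothing is read from that count. Members near 0 changed sign. STAG2 was at 0.028 with quality weights, 0.020 without the 3 libraries and −0.075 to 0.031 leaving out 1 library. RAD21 was at −0.0020 with RLE factors, −0.0050 with library size alone, −0.00088 without a filter, −0.0027 with DESeq2, −0.0056 summed by title number, −0.011 with the title letter, −0.0031 with the GC correction and −0.059 to 0.051 leaving out 1 library. SMC3 ranged from −0.10 to 0.0059 leaving out 1 library. WAPL was at 0.0019 with quality weights. PDS5A was at −0.036 summed by title number, −0.014 with the title letter and −0.045 to 0.078 leaving out 1 library. PDS5B was at 0.014 with quality weights, 0.051 without the 3 libraries and −0.094 to 0.037 leaving out 1 library, and its share difference was −0.94 to 0.064 points. The number of correlated pairs was 8, and 20 with the GC correction, 0 without the 3 libraries and 0 to 9 leaving out 1 library. The causes were not tested. No paired analysis was possible because no title number occurs in both groups and replicate numbers only name libraries.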
